A study of Caenorhabditis elegans with 2 samples.

Results

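Small nucleolar RNA (snoRNA) genes are the subject here, through the peaks of F37B4.10 protein that lie at them in Caenorhabditis elegans. A peak was taken as a member when its summit lay within 200 bp of an annotated snoRNA gene and of no tRNA gene. In the authors' ranked list made from both replicates, 310 of 115634 peaks (0.268%) met this rule. No summit lay near genes of both kinds.

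Chromatin immunoprecipitation followed by sequencing (ChIP-seq) recovers the DNA that comes down with one protein. The worms were whole young adults of strain OP374, aged 61 h and grown from L1 larvae that had been starved after bleaching. They carried the transgene wgIs374, which encodes F37B4.10 fused to TY1, EGFP and 3xFLAG tags together with unc-119(+), in the unc-119(tm4063) background, and an antibody against GFP pulled the fusion down. There was 1 group of 2 biological replicates and no second condition, so the design asks at which sites the fusion came down and how far both replicates share them. The peaks are those of a tagged protein made from a transgene, and the labels say nothing of the endogenous gene. Because whole worms were used, binding in more cells and stronger binding in each cell cannot be told apart.

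SnoRNAs guide chemical modification of ribosomal RNA: those with C and D boxes direct ribose methylation and those with H and ACA boxes direct conversion of uridine to pseudouridine. Many lie in introns of protein-coding genes and are cut out of the host transcript, while others have promoters of their own. In C. elegans some snoRNA genes are transcribed by RNA polymerase III, the enzyme that makes tRNAs, from upstream promoters with box A and box B elements like those inside tRNA genes.

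The upstream sequence of 8 of the strongest peaks outside the first chromosome is shown because it holds the letters that many of the strongest peaks share. These are the strongest of the 25 highest members that hold TGGCNNAG or GTTCGA there. Each sequence runs from 100 bases before the annotated start of the snoRNA gene to 20 bases inside it, 5′ to 3′ on the strand of the gene, from the RefSeq genome of ce11 (WBcel235). Capitals mark TGGCNNAG (box A letters) and GTTCGA (box B letters), and also TGGNNNA and GTTCNA where these stand in that order with starts 35 to 70 bases apart, called a loose pair. GTTCGA is itself a case of GTTCNA, and TGGCNNAG a case of TGGNNNA.
C51F7.3, chrV:12303608-12303727, plus strand: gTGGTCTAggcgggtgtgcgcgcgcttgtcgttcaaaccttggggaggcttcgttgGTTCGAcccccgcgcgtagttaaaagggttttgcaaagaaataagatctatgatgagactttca
T03F7.8, chrV:11314158-11314277, plus strand: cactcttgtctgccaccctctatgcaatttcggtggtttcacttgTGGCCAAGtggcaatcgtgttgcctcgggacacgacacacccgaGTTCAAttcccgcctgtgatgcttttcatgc
W03C9.9, chrII:11960798-11960917, plus strand: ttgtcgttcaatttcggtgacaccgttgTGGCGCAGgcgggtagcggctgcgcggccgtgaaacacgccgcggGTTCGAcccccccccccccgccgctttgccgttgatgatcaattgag
T06C12.16, chrV:15873907-15874026, minus strand: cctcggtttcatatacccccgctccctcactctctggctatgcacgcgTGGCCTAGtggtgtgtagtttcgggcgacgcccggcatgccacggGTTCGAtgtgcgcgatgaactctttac
W08G11.6, chrV:16370119-16370238, plus strand: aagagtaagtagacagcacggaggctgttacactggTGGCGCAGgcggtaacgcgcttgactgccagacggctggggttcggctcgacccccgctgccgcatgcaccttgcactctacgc
Y43F8C.22, chrV:19643168-19643287, minus strand: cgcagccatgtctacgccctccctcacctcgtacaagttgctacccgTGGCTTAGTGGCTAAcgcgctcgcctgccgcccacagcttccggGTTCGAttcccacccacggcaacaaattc
C41C4.11, chrII:8107251-8107370, minus strand: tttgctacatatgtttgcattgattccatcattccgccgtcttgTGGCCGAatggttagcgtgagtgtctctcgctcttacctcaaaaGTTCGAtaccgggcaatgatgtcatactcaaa
F30H5.4, chrIII:502704-502823, plus strand: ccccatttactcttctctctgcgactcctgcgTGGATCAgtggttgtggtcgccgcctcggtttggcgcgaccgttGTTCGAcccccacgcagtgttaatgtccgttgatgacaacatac

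The snoRNA genes held many weak peaks and a smaller number of very strong ones. Each peak carries the authors' signal, a value whose scale is not stated and which is compared here mainly within a list. Replicate values are set side by side as deposited, without scaling between the lists. Signal at the 310 members had a median of 32.7 (quartiles 20.004 and 53.3) and ran from 2.36 to 281. All 115634 ranked peaks had a median of 23.6, and the median member stood at the 73.05th percentile of the list. By signal, 44 members (14.2%) were in the top 1% of the list and 8 were among its first 100 peaks, while 97 lay below its median.

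Reproducibility between replicates was scored by the authors with the irreproducible discovery rate (IDR), which is low for a peak that ranks high in both inputs. An IDR of at most 0.01, the limit of the authors' thresholded lists, was met by 38 of 310 members (12.3%, exact 95% interval 8.82 to 16.4%), against 0.783% of all ranked peaks. The read depth is unknown, and this interval and the others cover counting error only. These 38 had signals of 39.4 to 281 with a median of 86.7, and the other 272 had a median of 29.0. They lay at 38 snoRNA genes, because 1 peak is near both C51F7.4 and C51F7.3 and 1 gene, Y37E3.20, has 2 such peaks. All 38 peaks are also in the authors' conservative list of 843. The authors' other thresholded list of 947 peaks, made from both replicates as well, overlapped 29 of the 38, and 9 members that missed the limit. The 9 peaks it left out lay at R166.7, F54F11.6, ZK20.9, Y37E3.20 (both peaks), T07D4.7, C04G6.12, Y53F4B.47 and C02F5.15.

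Peaks at tRNA genes and at small nuclear RNA (snRNA) genes, the classes most like this one, were similar in some ways. The 532 peaks at tRNA genes had a higher median signal, 41.6, and 58 of them (10.9%) met the IDR limit. The 113 peaks at snRNA genes had a median of 33.2, and 14 (12.4%) met it. The strongest tRNA peak reached 120 and the strongest snRNA peak 188, both below the strongest snoRNA peak at 281. Ranked peaks away from these 3 classes met the limit in 0.694% of cases. Here and below, groups of peaks within the list are described by their counts and medians, and differences between them were not tested.

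**Figure D1:**
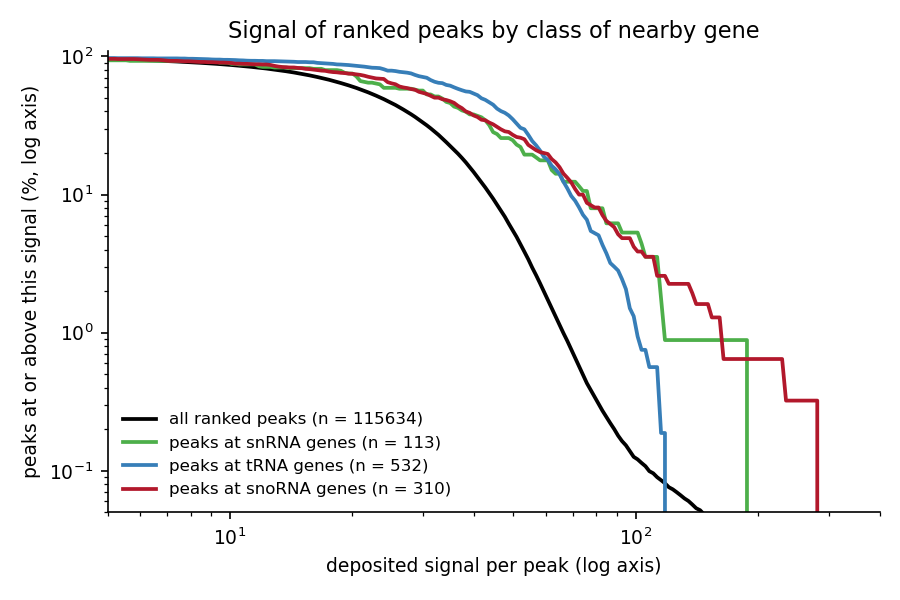
Share of ranked peaks (%, log axis) at or above each deposited signal (log axis, scale not stated) for 310 peaks at snoRNA genes, 532 at tRNA genes, 113 at snRNA genes and all 115634 ranked peaks. The median is 41.6 at tRNA genes and 32.7 at snoRNA genes. Of the 3 small RNA classes the snoRNA curve reaches farthest, to 281, while the curve of all ranked peaks runs on past the edge of the plot, to 1494.

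Members were found at 266 of 346 annotated snoRNA genes (76.9%, exact 95% interval 72.1 to 81.2%). Of these genes, 217 had 1 member and 49 had 2, and 80 had none. The snoRNA genes with a peak at or under the IDR limit numbered 38 (11.0%). Among 19973 protein-coding genes, 16321 had a ranked peak from 1000 bp before a start to 200 bp after it. Of the 19973, 344 (1.72%) had one at or under the limit. The windows differ in width, and a ranked peak at most genes is not particular to snoRNA genes. Members on the edge of the distance rule were ordinary ones: T28B8.11, F01D5.12 and C30C11.15, at 200, 199 and 199 bp, had signals of 24.0, 41.6 and 10.2. The peaks just outside, at 201, 202 and 203 bp from C50C3.14, R166.7 and W06A7.12, had signals of 44.5, 32.4 and 10.7.

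The strongest member ranked 10th of the whole list and lay over the neighbouring genes C51F7.4 and C51F7.3, within frm-7, which encodes a protein of the FERM family. The peak spans chrV:12303587-12303702. Its joint signal was 281, and its signal was 119.1 in the list of replicate 1 and 157 in that of replicate 2. C51F7.4 overlaps an exon of frm-7, and C51F7.3 lies in an intron. The annotated C51F7.4 gene covers the box letters that stand before C51F7.3. The other 309 members are each 276 bp wide, and this one is narrower.

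ZK994.7, which lies in an intron of the peroxidasin gene pxn-1, had the second strongest member, ranked 19th at chrV:8500414-8500689. Its signal was 233 in the joint list, 94.6 in replicate 1 and 129 in replicate 2. No box letters or loose pair stood in the 100 bases before ZK994.7. T03F7.8, antisense to an intron of the cuticlin-like gene cutl-18, ranked 40th, with 164.8 in the joint list, 58.4 in replicate 1 and 102 in replicate 2. All 3 had higher values in replicate 2, whose whole list also had the higher median (18.9, against 16.007 in replicate 1).

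W03C9.9, which lies outside protein-coding genes and has a pair of box letters, ranked 41st. Its signals were 164.6 in the joint list, 79.8 in replicate 1 and 84.3 in replicate 2, so the deposited values were close. Y75B12B.12, also outside protein-coding genes, had 139 in the joint list, 83.02 in replicate 1 and 62.4 in replicate 2. C10C6.8, in an intron of catp-8 (a cation-transporting ATPase gene), had 137.6, 57.2 and 80.3. The order of the replicates therefore differed from peak to peak.

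Y23H5B.10 and ZK265.10, both outside protein-coding genes, completed the 8 members among the first 100 ranked peaks, with joint signals of 154 and 120. Y23H5B.10 had 73.7 in replicate 1 and 82.6 in replicate 2, and ZK265.10 had 58.2 and 63.0.

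The next members, from T06C12.16 to F59C6.15, had joint signals of 112 down to 97.5. T06C12.16 was the least even of the 38: its signal was 70.3 in replicate 1 and 33.4 in replicate 2, which ranked 58th and 3732nd in those lists. W08G11.6, in an intron of W08G11.3, was even, with 49.9 and 53.9. Y43F8C.22, in an intron of Y43F8C.7, had 68.3 and 46.1, and C41C4.11 had 42.0 and 62.0. ZK484.9, antisense to an intron of haf-9 (a half-type ABC transporter gene), had 52.1 and 48.8. F30H5.4 was uneven the other way, with 33.5 in replicate 1 and 60.9 in replicate 2.

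The remaining members of the 25 strongest ran from T19B4.8 at 90.7 to C05D2.15 at 82.4. They were F32E10.10, F55A11.10, T02E1.9 (overlapping an exon of the sperm activation gene spe-12), B0334.12 (antisense to the potassium channel gene twk-5), K11C4.6 (in the spectrin gene unc-70), W01C9.6 (overlapping an exon of the globin gene glb-27), R166.7 (in the kinase gene mnk-1) and T04A8.17. The 25 ranked 10th to 329th in the whole list, and all 25 met the IDR limit.

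The other peaks at or under the limit had joint signals of 79.1 or less. They lay at C27H6.5 in unc-41, F12F6.11, F54F11.6 in sre-45, C53B7.8, F25H2.14 in tct-1, F25H2.15, ZK20.9, Y37E3.20 in pcyt-2.1, T07D4.7, C04G6.12 antisense to mpk-2, Y53F4B.47 and C02F5.15 in rfs-1. The 2 peaks at Y37E3.20, with joint signals of 65.4 and 39.4, carry the same values in both replicates, 38.7 and 33.6. The weaker of them shares the replicate peaks of the stronger, and 37 distinct pairs of input values stand behind the 38 peaks. Among all members, 14 share their input values with another member, in 7 pairs.

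Values on either side of the IDR limit were close. T07D4.7, C02F5.15 and Y53F4B.47 were the last inside, with IDR values of 0.00827, 0.00846 and 0.00877 and signals of 64.3, 61.7 and 63.6. T21H8.11, T06D8.11 and Y67A10A.14 were the first outside, with 0.0105, 0.0108 and 0.0114 and signals of 65.2, 71.1 and 61.5. T27A3.9, the strongest peak that missed the limit, had a joint signal of 75.5, with 18.9 in replicate 1 and 49.4 in replicate 2. Y74C9A.6 was more uneven still, at 74.4, with 14.04 and 59.1, and an IDR of 0.134. Both are in the authors' thresholded list of 947, as are T08B2.13, K02C4.8, C16A3.11, C27H5.9, T26A8.6, T21H8.11 and F07A11.15, which missed the limit too. At the other end, the 5 weakest members lay at T09B9.10 (signal 2.36), JC8.15 (3.14), C56G2.20 (3.31), Y24D9A.10 (3.52) and Y62F5A.11 (3.79).

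Each replicate's own ranked list also placed members above its median peak. Replicate 1 listed a peak over 209 of the 310 members (67.4%), with a median signal of 22.4 against 16.007 for its 58046 peaks. Replicate 2 listed 203 (65.5%), with a median of 25.3 against 18.9 for its 63045 peaks. Both lists held 156 members (50.3%), 1 list alone held 100, and 54 were in neither. The same overlaps were not counted over all ranked peaks, so these shares have no background beside them. The 38 peaks at or under the limit in the joint list were in both lists, at 28.7 to 119.1 (median 42.9) in replicate 1 and 31.6 to 157 (median 46.3) in replicate 2.

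Within a single replicate far fewer members met the limit. In replicate 1 they were 9, against 0.2% of that list, and in replicate 2 they were 8, against 0.216%. The thresholded lists of single replicates held 6 members in common, at C51F7.4, ZK994.7, W03C9.9, Y23H5B.10, Y75B12B.12 and C10C6.8. Replicate 1 alone added ZK265.10, T06C12.16 and Y43F8C.22, and replicate 2 alone added T03F7.8 and Y74C9A.6. The last of these missed the limit in the joint list.

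**Figure D2:**
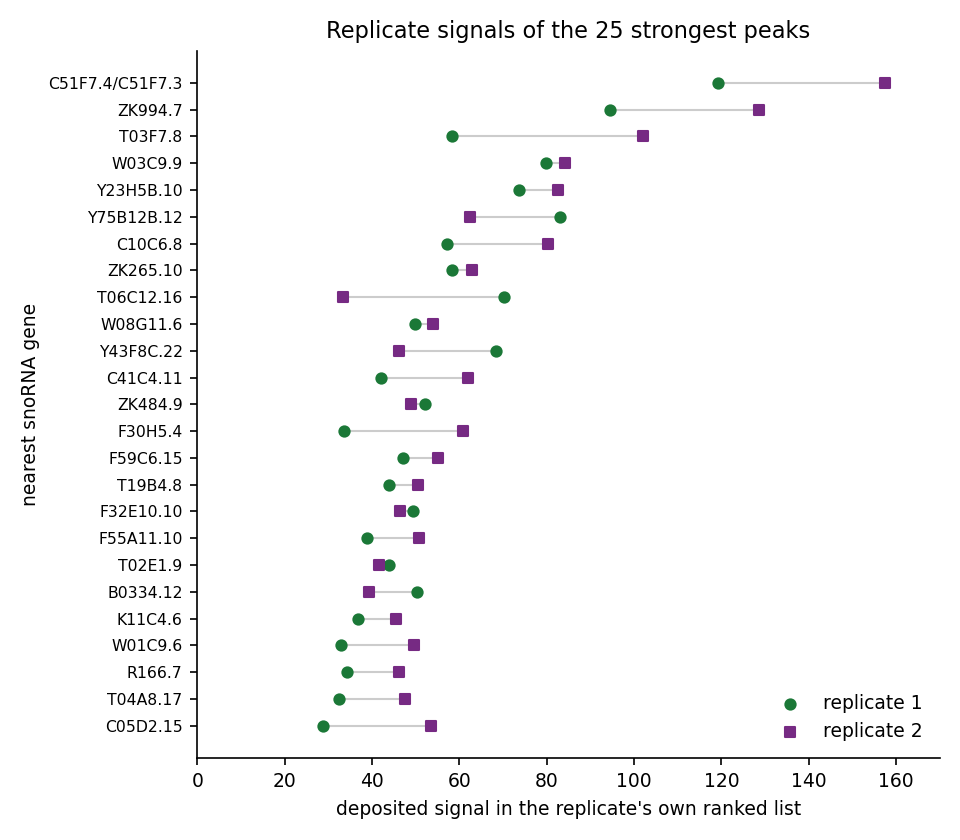
Deposited signal of the 25 strongest peaks at snoRNA genes in the ranked list of replicate 1 (circles) and of replicate 2 (squares), 1 row for each peak, ordered by joint signal. C51F7.4/C51F7.3 is highest in both lists (119.1 and 157), and T06C12.16 (70.3 and 33.4) and C05D2.15 (28.7 and 53.5) are the least even.

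The joint list also gives the signal of each of its 2 inputs, in columns that name no sample. The first input equalled replicate 1's own value at 207 of the 209 members listed there, and the second equalled replicate 2's at 199 of 203, within 0.0001. Across members the 2 inputs had a Spearman correlation of 0.546, against 0.280 across all ranked peaks. These are descriptions over peaks that share the same libraries. Among the 38 peaks at or under the limit, the ratio of second to first input ran from 0.475 (T06C12.16) to 1.86 (C05D2.15). The other most unequal ones were F30H5.4 (1.82), T03F7.8 (1.75) and F25H2.15 (0.644).

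The strong peaks lay mostly close to the start of the snoRNA gene. Each of the 38 peaks at or under the limit exceeded the nearest ranked peak on both sides that lay away from small RNA genes, with a median ratio of 2.48 to the higher neighbour. Strong peaks in general did so: among all 905 ranked peaks at or under the limit the share was 92.9% and the median ratio 2.18. Over all members, 144 of 310 (46.5%) exceeded both neighbours, with a median ratio of 0.912. Summits from 100 bp upstream to 50 bp inside the start made up 29 of the 38 (76.3%) and 99 of the other 272 (36.4%). The median summit of the 38 was 21 bp upstream of the start, and the range ran from 163 bp upstream at ZK20.9 to 241 bp downstream at F54F11.6.

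**Figure D3:**
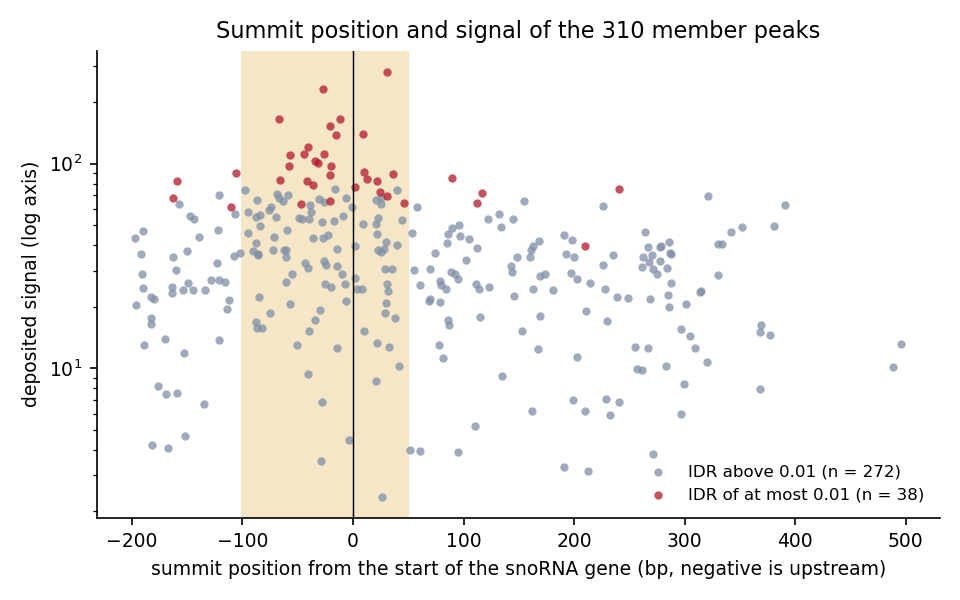
Summit position from the annotated start of the nearest snoRNA gene (bp, negative is upstream) against deposited signal (log axis) for the 310 members, with peaks of IDR at most 0.01 in red and a shaded band from 100 bp upstream to 50 bp inside the start. The band holds 29 of the 38 red points and 99 of the 272 grey ones.

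Box A and box B letters were more frequent before snoRNA genes than before protein-coding genes. In the 100 bases upstream, on the strand of the gene, GTTCGA stood before 24 of 346 snoRNA genes (6.94%) and 1.43% of 19973 protein-coding genes. TGGCNNAG stood before 29 (8.38%) and 0.686%. Both, in the order A then B with starts 20 to 80 bases apart, stood before 11 snoRNA genes (3.18%) and 2 protein-coding genes (0.01001%). No pair was found on the opposite strand of the snoRNA windows, or in windows of 100 bases that begin 300 bases upstream.

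The 11 pairs were alike in position. Box A letters began 72 to 52 bases before the start and box B letters 27 to 7 bases before it, 43 to 52 bases apart (median 45). Of the 11 genes, 10 had a member peak, with a median signal of 86.5 and a range of 43.5 to 164.6. At W03C9.9, T06C12.16, Y43F8C.22, F32E10.10, F55A11.10 and K11C4.6 the peak met the IDR limit. At T24H7.6, T10B9.11, Y39G10AR.24 and ZK546.18 it did not, and Y59E1B.14 had no member. Members at genes with box B letters only met the limit in 5 of 13 cases (38.5%), and with box A letters only in 5 of 20 (25%). With neither kind of letter they met it in 22 of 267 cases (8.24%).

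With the looser letters, which were chosen after looking at the sequences before the strongest peaks, more snoRNA genes held a pair. A loose pair stood before 29 of 346 snoRNA genes (8.38%), against 0.396% of protein-coding genes, 2 snoRNA windows on the opposite strand and 0 of the windows that begin 300 bases upstream. It stood before 17 of the 38 genes with a peak at or under the IDR limit (44.7%), 8 of the 228 genes with weaker members (3.51%) and 4 of the 80 genes without a member (5%). Read the other way, 17 of 29 genes with a loose pair (58.6%) had such a peak, against 21 of 317 without one (6.62%). Because the letters were picked from some of the same genes, these shares describe the genes and are not independent of them.

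The strongest peak of each gene had a median signal of 88.2 at the 25 genes with a loose pair and a member, and 34.995 at the 241 without a pair. The genes at or under the limit with a loose pair were C51F7.3, T03F7.8, W03C9.9, Y75B12B.12, T06C12.16, Y43F8C.22, C41C4.11, ZK484.9, F30H5.4, T19B4.8, F32E10.10, F55A11.10, T02E1.9, K11C4.6, C05D2.15, F12F6.11 and C04G6.12. Among the 25 strongest peaks, ZK994.7, Y23H5B.10, C10C6.8, ZK265.10, W08G11.6, F59C6.15, B0334.12, W01C9.6, R166.7 and T04A8.17 had none within the upstream window. At R166.7, GTTCAA follows the box A letters but runs over the annotated start, past the end of the window, so it was not counted. R12E2.17, Y6B3B.15, K07C5.12 and Y59E1B.14 had a loose pair and no member. H04D03.5, with a pair and a signal of 15.2, had the weakest member of the group. The letters are thus neither always present nor always accompanied by a peak.

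**Figure D4:**
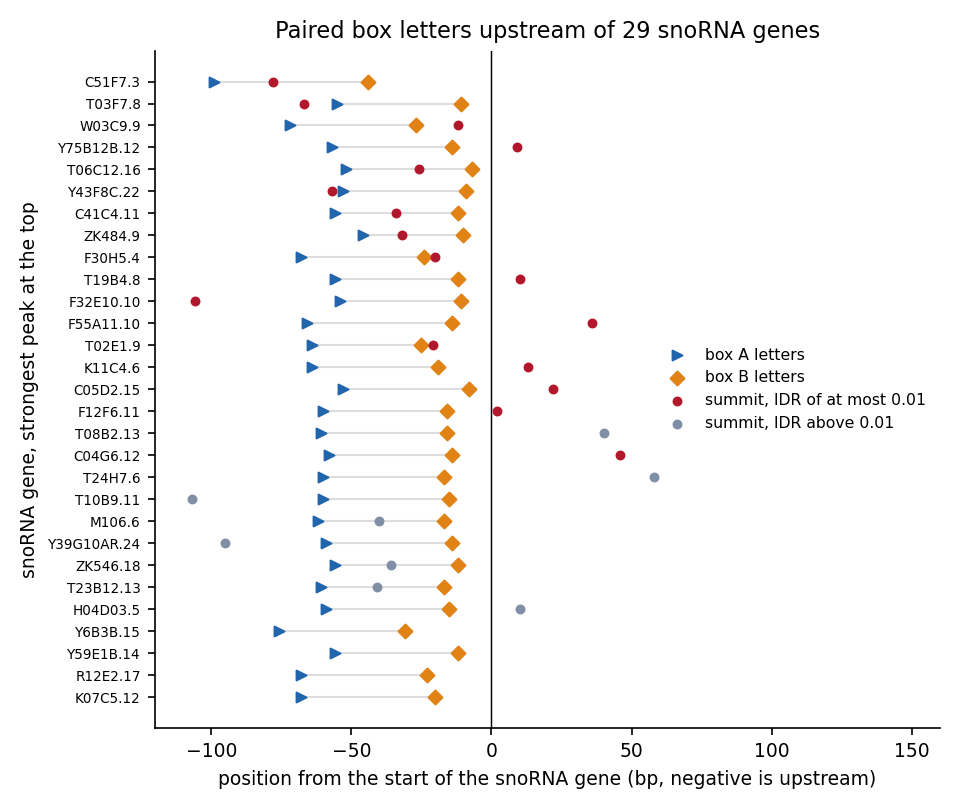
Positions of loose-pair box A letters (triangles), box B letters (diamonds) and the summit of the strongest peak (circles, red for IDR at most 0.01) from the annotated start of each of the 29 snoRNA genes with a pair (bp, negative is upstream), strongest peak at the top. Where a gene has more than 1 pair, the pair with starts nearest to 45 bases apart is drawn. Of the 29 drawn, 24 are 43 to 46 apart, a spacing that this choice favours at genes with more than 1 pair. The genes at the top hold most of the red circles, and the last 4 have no member.

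Counted around summits, on both strands, the letters gave a smaller contrast. GTTCGA lay within 100 bp of the summit at 42 of 310 members (13.5%), 12 of the 38 at or under the limit (31.6%), 8.05% of all ranked peaks and 13.9% of all 905 ranked peaks at or under the limit. TGGCNNAG lay there at 17.1% of members, 28.9% of the 38, 7.31% of all ranked peaks and 11.7% of the 905. The longer GGTTCGA was found at 4.19% of members, 13.2% of the 38, 1.87% of all ranked peaks and 7.29% of the 905. The letters TGATGA, the core of the C box inside snoRNAs, were found at 16.8% of members and 15.7% of all ranked peaks, but at 23.7% of the 38 and 11.5% of the 905 ranked peaks at or under the limit.

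The base composition of the peaks moved with their signal. Median GC content was 42.0% at members, 46.7% at the 38 at or under the limit, 46.4% at all 905 ranked peaks at or under it and 38.0% at all ranked peaks. The Spearman correlation of GC content with signal was 0.470 across members and 0.330 across all ranked peaks. Members at genes with a loose pair had a median of 46.4%, and those without, 41.7%. The part of base composition in the signal differences was not tested.

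Peaks at short snoRNA genes were stronger than those at long ones. At genes under 80 bp long, 46 members had a median signal of 55.6 and 16 (34.8%) met the limit. From 80 to under 120 bp it was 9 of 62, from 120 to under 160 bp 8 of 109, and at 160 bp or more 5 of 93 (5.38%), with medians of 31.1, 29.0 and 29.0. The loose pair moved with length: it stood before 16 of 53 genes under 80 bp (30.2%) and 13 of 293 longer ones (4.44%). The parts of length and of the letters were not told apart.

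Letters inside the snoRNA genes gave 3 unequal groups. Genes with TGATGA followed by CTGA, as in box C/D snoRNAs, had 19 members with a median of 61.5, of which 6 met the limit. Genes ending in ACA and 3 more bases, as in box H/ACA snoRNAs, had 58 members with a median of 34.9, of which 9 did. The other 233 members had a median of 31.6, and 23 met it. These letters alone leave most annotated snoRNA genes unclassified.

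Peaks at intronic and at independent snoRNA genes had similar median signals. The 135 peaks at 150 intronic genes, those inside an intron of a protein-coding gene on the same strand, had a median of 31.6, and 14 (10.4%) met the limit. The 175 peaks at the other 196 genes had a median of 33.2, and 24 (13.7%) met it. The difference of the medians, intronic minus independent, was -1.56, and it changed sign under several other definitions: it was 0.72 with summits within 100 bp and 1.44 when introns on either strand were counted. Of the independent ones, peaks at genes antisense to an intron had a median of 36.6 with 5 of 25 at or under the limit, peaks at genes overlapping an exon 25.8 with 3 of 39, and peaks outside protein-coding genes 35.2 with 16 of 111.

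Intronic and independent genes were then split by the loose pair. Shares differed in the same direction in each, but the letters were picked from some of the same genes, so this is no separate support. Of 12 intronic genes with a pair, 5 had a peak at or under the limit (41.7%), against 6.52% of those without. Of 17 independent genes with a pair, 12 did (70.6%), against 12 of 179 without (6.70%). The intronic genes with such a peak and a pair were C51F7.3, Y43F8C.22, F55A11.10, K11C4.6 and C05D2.15. The peak at C51F7.3 is also that of C51F7.4, which counts among the 12 independent genes without a pair.

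**Figure D5:**
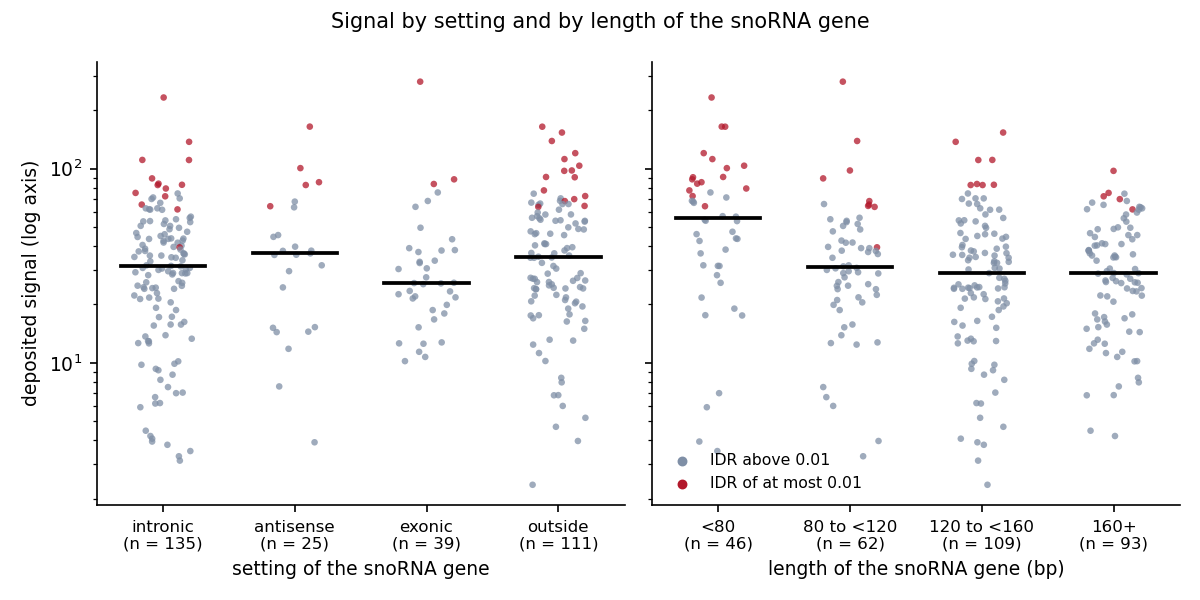
Deposited signal (log axis) of each of the 310 members by the setting of its snoRNA gene (left) and by the length of that gene in bp (right), red for IDR at most 0.01, with black bars at the medians. The medians of the 4 settings lie between 25.8 and 36.6, while genes under 80 bp have a median of 55.6 against 29.0 to 31.1 for longer ones.

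Members at snoRNA genes in introns of ribosomal protein genes, frequent hosts of snoRNAs, had a median signal close to that at other hosts. Peaks elsewhere in these host genes were not examined. The 19 snoRNA genes in introns of ribosomal protein genes (those named rpl or rps) had 20 members with a median of 32.9. Of these, 0 of 20 met the IDR limit, against 0.783% of all ranked peaks. At other hosts, 14 members (12.2%) did, a share at which few of 20 members would meet the limit. The host nol-56, which encodes a core protein of box C/D particles, carries 4 snoRNA genes, and 3 of them had members of signal 29.0 or less. At rpl-6 all 3 snoRNA genes had a member, up to 37.5, with R151.11 and R151.12 sharing the same peak. At top-2, the topoisomerase gene, none of 3 had one.

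Other annotated features near the members were counted as well. Promoters of protein-coding genes, taken as the 1000 bp before a start and the 200 bp after it, held 109 members with a median of 34.8, of which 12 met the limit. The 201 outside promoters had a median of 31.6, and 26 met it. Genes annotated as other noncoding RNA lay within 200 bp of 49 members, among them 11 of the 38. Neither promoters nor noncoding RNA genes were counted over all ranked peaks, so these counts have no background beside them. By chromosome the share at or under the limit ran from 1 of 30 members on X to 10 of 48 on V. The share over all ranked peaks of each chromosome was not counted either.

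Genes for the proteins that work with snoRNAs had peaks of moderate signal at their promoters. Of 18 names listed for snoRNA particle proteins and their assembly, 12 genes were matched. All 12 had a ranked peak in the promoter, as did 16321 of all 19973 protein-coding genes. The median of the best signals was 37.8 in the list and 31.2 over all protein-coding genes with such a peak. The IDR limit was met by 0 of the 12, against 1.72% of all protein-coding genes. The highest were garr-1 (signal 65.9, IDR 0.0112), ruvb-1 (58.4), Y48A6B.3 (57.8) and fib-1 (52.9), the last encoding the methyltransferase fibrillarin. The listed name gar-1 matched a muscarinic acetylcholine receptor gene in C. elegans, with a signal of 7.36, so 11 of the 12 belong to the named function. Of 19 names listed for transcription of small RNA genes, 18 were matched and 14 had a promoter peak, with a median best signal of 27.3. Of these, snpc-3.4, a gene of the complex that activates small nuclear RNA genes, met the limit with a signal of 66.8 and an IDR of 0.00959. The RNA polymerase III genes rpc-2, rpc-11 and rpc-25 had 20.6, 28.8 and 19.6. The listed sftb-1 encodes a splicing factor and had no promoter peak.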

How the data were processed

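Peak lists of 2 biological replicates of 1 group, on ce11 per the labels, were used. The authors deposited a signal per peak, on a scale not stated, an IDR as −log10 values, and for each input of the joint lists a signal treated here as a score, since its column names no sample. The other 14 columns per input were not used. Aligner and peak caller: not given in the sources used here; depth is unknown.

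Genes came from Ensembl release 115 (WBcel235) and sequence from RefSeq. Settings, letters and neighbours were computed with pandas 2.3.3 and numpy 2.4.6 (Python 3.11.15), intervals with scipy 1.17.1 and plots with matplotlib 3.10.9, and checked on simulated data. A replicate's list held a member when any base overlapped. Intervals are exact (Clopper-Pearson). The 25 highest members, every member with an IDR of at most 0.01, those beside each limit, the 5 lowest, the 5 most unequal and the listed pathway genes were named. Members and lists were chosen with earlier results of these data known. Pair spacing, loose letters, length classes and neighbour ratios were chosen after seeing the data. Alternatives were other distances, lists, IDR limits and windows.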

Additional observations from a re-analysis of the deposited data

How the results depend on the processing

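The main limits are 2 replicates, an unknown depth and a signal of unstated scale. Taking summits within 100 bp and 500 bp gave 206 and 552 members, median signals of 37.7 and 28.2, median percentiles of 82.2 and 62.5, 57.5% and 89.0% of snoRNA genes, and an intronic minus independent difference of 0.72 and 0.82 in place of -1.56. Requiring any base of the peak in the gene gave a median of 35.7, a percentile of 78.95 and 65.3% of genes. With 1 value per gene the median was 36.7 and the percentile 80.6. Counting introns on either strand gave a difference of 1.44. IDR limits of 0.05 and 0.001 gave 75 and 15 members in place of 38. The shares of all ranked peaks at these other limits were not counted, so these counts have no background beside them. Replicate lists alone gave 200 to 213 members, medians of 22.2 to 24.5, percentiles of 75.3 to 79.8, 8 to 9 members at or under the limit, 53.2% to 56.9% of genes and differences of -1.84 to 0.41. With summits within 100 bp, 38.1% of members were in both replicates' lists. Box B letters within 50 bp were at 8.39% of members, and GTTCNA within 100 bp, added after seeing the data, at 37.1%. The looser letters, also added then, moved the share of genes with a pair from 3.18% to 8.38%. No summit lay near both a snoRNA and a tRNA gene, so keeping summits near tRNA genes could change nothing. Using the authors' other joint list moved none of the values recomputed by more than the spread allowed. Without members on chromosome V, 28 members met the limit. No paired analysis was possible because there is 1 group. The causes of these shifts were not tested.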
